A study of Mus musculus with 2 samples.

Results

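Lepr, the gene of the leptin receptor, is described here in the CD45+ cells of mouse TSA mammary tumours, above all in macrophages. It is 1 of 27998 genes in the count tables and was chosen by its low level in the nicotinamide (NAM) library, so every value that sets NAM against untreated for this gene is a description and supports nothing further. Macrophages were taken as cells with at least 20 unique molecular identifiers (UMIs) of C1qa, C1qb and C1qc together, the chains of complement C1q. They also had to fall below the marker limits of the T-cell and NK-cell gates. This gate held 2008 of 2922 untreated cells and 2223 of 3276 NAM cells.

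The leptin receptor is a class I cytokine receptor on the cell surface. Leptin, a hormone made mainly by fat cells, binds to it and acts through the kinase JAK2 and the transcription factors STAT3 and STAT5, while SOCS3 and the phosphatase PTP1B restrain the signal. A long form of the receptor carries the full signalling tail, and shorter forms arise from the same gene by alternative splicing. The receptor is best known from the hypothalamus, where it takes part in the control of food intake, and it is also made by several kinds of leukocyte.

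The tumours came from TSA cells, a mouse mammary adenocarcinoma line, grown under the skin of BALB/c mice that were left untreated or received 0.5% NAM, a form of vitamin B3, in the drinking water for 10 days. Tumours of 3 mice per group were pooled before CD45+ cells were isolated on magnetic beads, and 1 droplet library with 3′ tags was made per group. With 1 library per group no difference between the groups can be tested, differences between mice cannot be seen, and the intervals given below (95%, exact) cover counting error only. The libraries held 29161823 untreated and 32090120 NAM UMIs, with a median of 9056 and 9128 UMIs per cell.

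In mm10 the gene lies on the forward strand of chromosome 4, from 101717404 to 101815352 (Ensembl ENSMUSG00000057722, GENCODE annotation of GRCm38). The annotation holds 7 transcripts of the gene. The 3 long coding ones, Lepr-201, Lepr-202 and Lepr-203, start at the same base but end at 101815352, 101792258 and 101813667, and they code for 1162, 892 and 894 amino acids respectively. The count tables give 1 value per gene, so long and short receptor forms were not told apart. The neighbouring gene Leprot, whose product influences how much receptor reaches the cell surface, ends 58039 bases before Lepr begins, and the annotated genes do not overlap.

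Most Lepr UMIs of both libraries were in the macrophage gate. The untreated library held 1669 Lepr UMIs in 245 cells, 89.5% of them in macrophage-gated cells. The NAM library held 179 in 68 cells, and 79.9% were in that gate. Over all genes the gate held 21101217 of 29161823 UMIs untreated and 23368152 of 32090120 in NAM. It held 68.7% of untreated and 67.9% of NAM cells. The gated cells carried other macrophage markers, the growth factor receptor Csf1r and the lysosomal protein Cd68, with a UMI of Csf1r in 97.0% and 95.5% of cells and of Cd68 in 96.3% and 97.5% (untreated and NAM). Lepr-positive cells kept them: 182 of 187 untreated and 47 of 49 NAM cells had Csf1r.

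In untreated macrophages Lepr reached 70.8 CPM (UMIs per 1000000 UMIs, interval 67.2 to 74.4), from 1493 UMIs. In NAM macrophages it was at 6.12 CPM (5.16 to 7.21), from 143 UMIs. The untreated level was 11.6-fold that of NAM (log2 NAM over untreated -3.53, -3.79 to -3.28), which is the contrast that Lepr was picked by. Both the share of cells and the amount per cell were lower in NAM. A Lepr UMI was found in 187 untreated cells, or 9.31% (8.08 to 10.7), against 49 NAM cells, or 2.20% (1.64 to 2.90), while the median depth of the gate was 9837 UMIs in each library. Thinned to 3000 UMIs per cell, which removes any difference in depth, the shares were 4.78% and 1.02%. Positive cells held a mean of 7.98 UMIs untreated and 2.92 in NAM, but the median was 1 in both, so the mean was carried by a few cells.

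Of 9805 genes with at least 100 UMIs in macrophages, Lepr had the second lowest ratio of NAM to untreated, which is how it came to be picked. Retnla, a secreted protein of alternatively activated macrophages, was lowest at -3.74 on the log2 scale. Lyve1, a hyaluronan receptor of tissue macrophages, came next at -3.16, then Hspb1, a small heat shock protein, at -3.04 and Ednrb, an endothelin receptor, at -2.89. Across all these genes 3.9% were at least 1.5-fold lower and 1.02% at least 1.5-fold higher in NAM, with a median log2 ratio of -0.03.

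Lymphocytes, which were read as the background for free RNA, held few Lepr UMIs. Among T-cell and NK-cell gates 6 of 271 untreated cells had 1 UMI each, a share of 2.21% (0.817 to 4.76) or 1.15% after thinning, at a median depth of 4673 UMIs. None of 308 such cells in NAM had one, which allows a share of up to 0.974% if 3 counts are taken as the limit, or 1.19% by the exact interval. The 97 untreated and 26 NAM macrophages with a single Lepr UMI must be read against this background, as it cannot be told which of them made the transcript. No lymphocyte had 2 or more Lepr UMIs, whereas 90 untreated macrophages (4.48%) and 23 NAM macrophages (1.03%) did.

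Among the other groups the untreated order ran from C1q-low cells without other markers through monocytes to Ctsk Acp5 Mmp9 cells. C1q-low cells had 42.2 CPM (32.2 to 54.3), monocytes, gated on Ly6c2 and Plac8, had 26.8 (19.6 to 35.9), and cells with 20 or more UMIs of the osteoclast-type genes Ctsk, Acp5 and Mmp9 had 14.4 (9.93 to 20.3). By CPM macrophages were above all 3 groups beyond counting error, while each neighbouring pair among the 3 overlapped in its intervals. Their lead over C1q-low cells rested on few cells, since it was 45.9 CPM (43.1 to 48.9) against 42.2 once the 5 cells of the library with the most Lepr UMIs, all macrophages, were left out. C1q-low cells were also positive about as often as macrophages, at 9.49% (5.41 to 15.2) against 9.31%, or 5.49% against 4.78% after thinning. Monocytes were positive in 5.81% of cells (3.29 to 9.41) at a lower depth (median 5836.5 UMIs), or in 3.97% after thinning. In the Ctsk group 13.3% of cells were positive, more than among macrophages, but these cells were deeper (median 16850 UMIs) and their share after thinning was 3.01%. Dendritic cells were near the background, since 2 of 81 untreated cells in the 3 dendritic gates had a UMI and none of 87 in NAM did.

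In NAM macrophages were not first in CPM. C1q-low cells were highest at 12.9 CPM (7.98 to 19.7), although 12 of their 21 UMIs came from 1 cell. With the 5 cells of the NAM library that held most Lepr UMIs left out, 1 of them C1q-low and 4 macrophages, the levels were 5.53 CPM (2.53 to 10.5) and 3.43 (2.72 to 4.27), which overlap. Monocytes had 4.69 CPM (2.02 to 9.24) from 8 UMIs, which did not differ from macrophages beyond counting error. The Ctsk group had 2.04 CPM from 5 cells with 1 UMI each, which cannot be told from background. Lepr was lower in NAM in each of these groups, with a log2 ratio of NAM over untreated of -1.71 (-2.50 to -0.97) in C1q-low cells, -2.52 (-3.81 to -1.42) in monocytes and -2.82 (-4.54 to -1.46) in Ctsk cells.

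**Figure D1:**
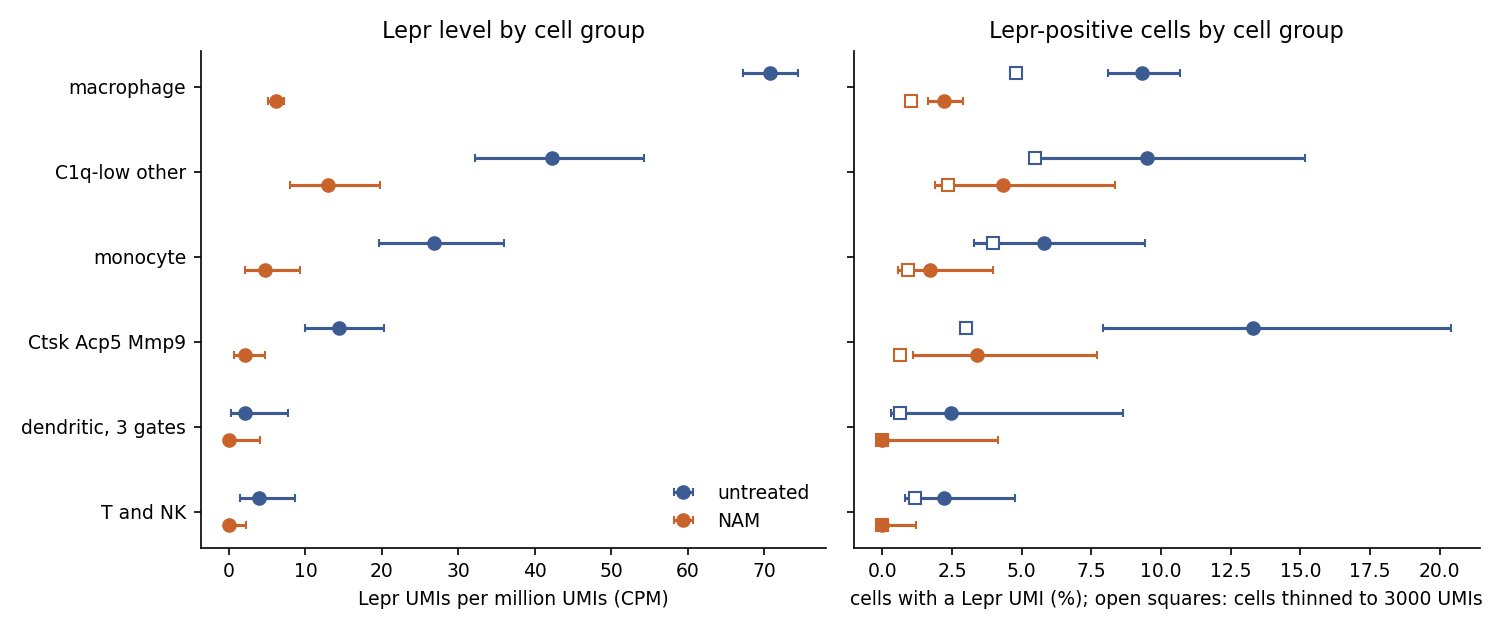
The left panel plots Lepr CPM and the right panel the percentage of cells with a Lepr UMI, for 6 groups of cells in the untreated and NAM libraries, with exact 95% counting intervals as bars and shares after thinning to 3000 UMIs as open squares. Untreated macrophages are highest in CPM at 70.8, C1q-low cells are positive about as often, and in every group the NAM point lies below the untreated one.

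Lepr was distributed over macrophages very unevenly. The highest untreated cell held 154 Lepr UMIs of 17537 UMIs in all, and the next ones held 114, 89, 87 and 84. The 5 highest cells thus carried 35.4% of the Lepr UMIs of the gate and the 10 highest 55.2%. The 41 cells with 5 or more UMIs (2.04% of the gate) carried 84.7%. In NAM the highest cells held 30, 16, 11, 6 and 5 UMIs, 47.6% of the total, and only 6 cells had 5 or more. At the low end 51.9% of untreated and 53.1% of NAM positive cells had a single UMI. Cells with 1 UMI numbered 97 untreated and 26 in NAM, those with 2 UMIs 25 and 11, and those with 5 or more 41 and 6, so cells were fewer in NAM at each of these copy numbers.

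The variance of Lepr UMIs over cells was 57.9 times its mean in untreated macrophages, against a median of 1.33 over the 2287 genes with a mean within 2-fold of that of Lepr. Lepr was the fourth among them, after Saa3, an acute phase protein, Cxcl13, a chemokine that attracts B cells, and Ctsk, the bone protease cathepsin K. In NAM the ratio was 10.5, rank 15 of 3235 genes. Levels of Lepr between groups of cells therefore depend on few cells, and values that leave out the 5 highest cells per library, counted over all groups as above, are given below.

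**Figure D2:**
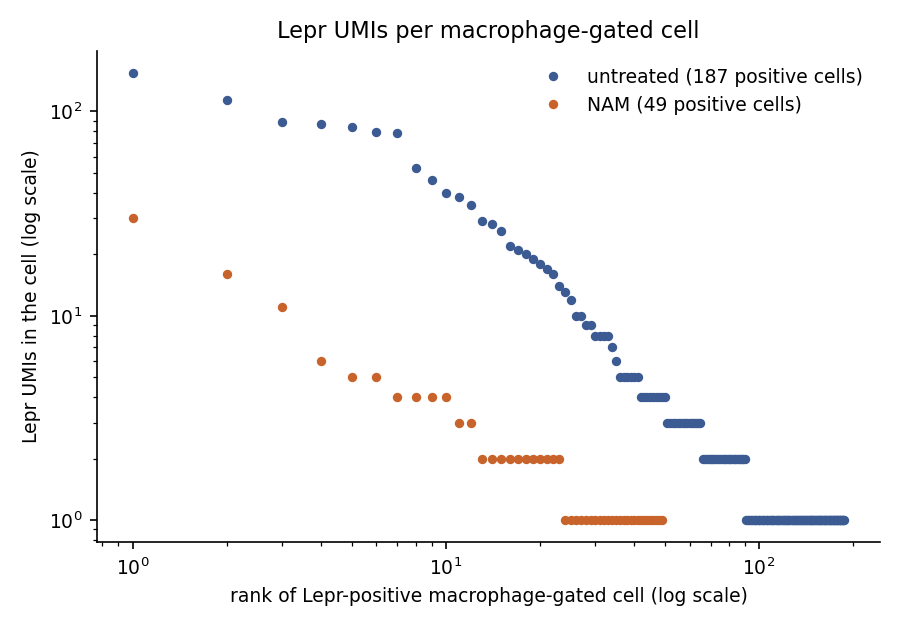
Each point is 1 Lepr-positive macrophage-gated cell, ranked on the x axis (log scale) by its number of Lepr UMIs on the y axis (log scale). The 187 untreated cells begin at 154 UMIs and the 49 NAM cells at 30, and both curves end in a long run of cells with 1 UMI.

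Of the macrophage programs described here, cycling cells had most Lepr in both libraries. These were cells with 5 or more UMIs of Birc5, Ube2c, Top2a and Mki67, all genes of dividing cells. The 243 cycling cells of the untreated library (12.1% of the gate) held 50.7% of its Lepr UMIs, at 203 CPM (189 to 218) against 42.4 (39.4 to 45.5) in the other macrophages. In NAM the 239 cycling cells held 48.3%, at 18.6 CPM (14.4 to 23.5) against 3.77 (2.96 to 4.73). The ratio was thus much alike in the 2 libraries, 4.79-fold and 4.93-fold. Without the 5 highest cells per library it was smaller, at log2 1.75 untreated and 1.02 in NAM compared with 2.26 and 2.30, and it remained above 0 in both.

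The share of positive cells, on which a single cell has little weight, differed the same way. Among cycling cells 22.2% were positive untreated, against 7.54% of the others, and 6.69% against 1.66% in NAM. After thinning the shares were 11.7% against 3.82% and 2.80% against 0.80%. Cycling cells were deeper than the rest (median 15197 against 9449 UMIs untreated), and within tertiles of macrophages by depth the untreated shares were 16.7% against 5.63%, 21.1% against 6.18% and 23.4% against 11.7% from the shallowest tertile to the deepest. In NAM they were 4.76% against 1.53%, 4.88% against 1.86% and 7.34% against 1.60%, with only 1, 2 and 13 positive cycling cells behind them. Cycling and other macrophages were lower in NAM by nearly the same factor, 10.9-fold and 11.2-fold. This rested on few cells, as the log2 ratios were -4.19 (-4.88 to -3.57) in cycling and -3.46 (-3.87 to -3.07) in other macrophages without the 5 highest cells per library.

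Read the other way round, the share of cycling cells was 10.4% (9.02 to 11.9) among untreated macrophages without Lepr, 24.7% (16.5 to 34.5) among those with 1 UMI, 22.4% (11.8 to 36.6) with 2 to 4 and 46.3% (30.7 to 62.6) with 5 or more. In NAM it was 10.3%, 30.8%, 23.5% and 66.7%, the last from 4 of 6 cells. Cells without Lepr were thus lowest in both libraries, though the interval of the 17 NAM cells with 2 to 4 UMIs (6.81 to 49.9) reaches below that share.

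**Figure D3:**
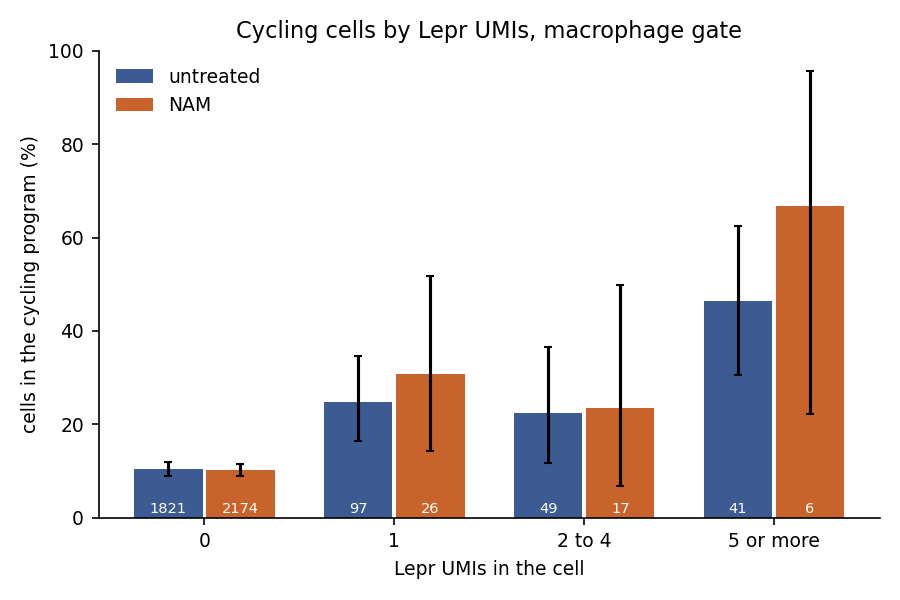
Bars give the percentage of macrophage-gated cells in the cycling program (y axis) by the number of Lepr UMIs in the cell (x axis) in each library, with exact 95% binomial intervals and the number of cells at the foot of each bar. The untreated bars run from 10.4% without Lepr to 46.3% with 5 or more UMIs.

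The other macrophage programs moved with Lepr less evenly. Cells with Tgfbi, Htra3 and Ccr2, an inflammatory monocyte receptor among them, had 128 CPM against 55.9 in the rest untreated and 9.28 against 4.94 in NAM. Their share of positive cells was 13.3% against 8.59% outside the group untreated and 2.75% against 2.06% in NAM. These cells were deeper than the rest (median 13327 against 9361 UMIs untreated, 12288 against 9306 in NAM). After thinning the shares were 6.74% against 4.42% untreated and 1.10% against 0.99% in NAM. Without the 5 highest cells the Tgfbi ratio was log2 0.91 untreated and -0.36 in NAM, so that in NAM the difference rested on those cells. Cells with Vcam1, an adhesion molecule, and Dnase1l3, a secreted DNase, were lower than the rest, at 56.3 against 75.2 CPM untreated and 2.58 against 7.09 in NAM. Their share of positive cells was 9.45% against 9.28% untreated and 2.06% against 2.24% in NAM, or 4.49% against 4.86% and 0.64% against 1.11% after thinning. Without the 5 highest cells the Vcam1 ratio was log2 -0.57 untreated and -0.51 in NAM, compared with -0.42 and -1.46. Interferon-high cells, with Ifit3, Rsad2 and Isg15, had 40.6 against 75.5 CPM untreated, but 9.46% against 9.29% of their cells were positive. In NAM the interferon interval included no difference (log2 -0.74, -1.73 to 0.11), and without the 5 highest cells the interferon ratio was -0.21 untreated and 0.20 in NAM.

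Cells with 10 or more UMIs of tissue-resident genes (Lyve1, Retnla, Folr2, Cd163 and others) had 49.5 CPM against 75.8 untreated and 9.43 against 5.77 in NAM. The NAM interval of this ratio includes no difference. Their share of positive cells was somewhat above that of the rest, at 10.3% against 9.12% untreated and 2.94% against 2.14% in NAM, which rests on 5 NAM cells. After thinning it was below the rest untreated, at 4.42% against 4.85%, and above it in NAM, at 1.35% against 0.99%. The log2 ratio of CPM, -0.61 untreated and 0.71 in NAM, depended on how it was taken. Without the 5 highest cells it was -1.26 and -0.98, and with the threshold doubled it was 0.12 and 1.97, so that no direction can be given for these cells.

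**Figure D4:**
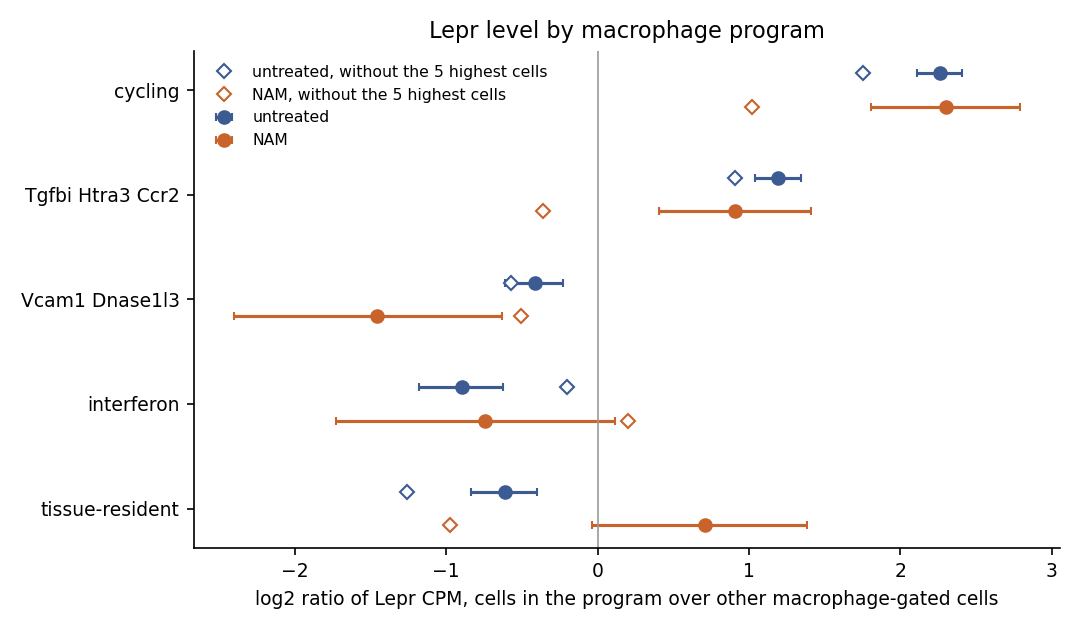
Points give the log2 ratio of Lepr CPM between cells in a macrophage program and all other macrophage-gated cells, with exact 95% counting intervals, and open diamonds the ratio when the 5 highest cells per library are left out. The cycling program stays above 1 in both libraries without those cells (1.75 and 1.02), while in NAM the Tgfbi program moves from 0.91 to -0.36.

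To ask which genes mark Lepr-positive macrophages, positive and negative cells were compared within the untreated library and the genes found were read again in NAM. Positive cells were deeper (median 11966 against 9615 UMIs untreated, 10679 against 9818 in NAM). Untreated, 4.42% of 8557 genes were at least 1.5-fold higher in positive cells and 4.52% at least 1.5-fold lower. With only 49 positive cells in NAM the scatter was larger, and 11.1% of 8618 genes were higher and 13.1% lower.

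The 15 genes with the largest ratio in untreated cells were mostly genes of mitosis. Plk1, Aurka and Ccnb1, a pair of mitotic kinases and cyclin B1, which drives entry into mitosis, had ratios of 4.23-, 3.33- and 3.33-fold, with Plk1 at 38.6 CPM in positive and 9.12 in negative cells. Cdc20, an activator of the anaphase-promoting complex, was 3.45-fold higher, and Sgol1, which protects centromere cohesion, 3.76-fold. Prc1 and Kif23, which build the midzone of the spindle, were 3.25- and 3.11-fold higher, Hmmr 3.21-fold and the kinetochore protein Cenpf 2.99-fold. Fam64a, Arhgef39, Arhgap11a and Cdca2 had ratios between 3.02- and 3.25-fold. The remaining 2 rested on single cells, since 42 of 56 UMIs of C730034F03Rik and 42 of 45 of 1500002C15Rik came from 1 cell each, the latter from the cell with 154 Lepr UMIs.

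Of these 15 genes 12 had at least 100 UMIs in NAM, and 11 of the 12 were at least 1.5-fold higher in NAM positive cells as well, beside 11.1% of all genes. Hmmr was 4.75-fold higher there, Prc1 4.38-fold, Ccnb1 3.38-fold and Plk1 2.71-fold (log2 1.44, 0.63 to 2.15), the last from 17 UMIs in 7 cells. Arhgap11a was at 1.32-fold and did not pass. When negative cells were weighted to the depth of the positive ones, all 15 genes passed the fold untreated and 8 of 12 did in NAM, beside 3.3% and 10.2% of all genes. When the 15 genes were chosen anew, the number that passed in NAM was 3 of 13 without cycling cells (11% of all genes), 4 of 12 with depth matched (10.2%) and 5 of 12 from cells with 5 or more Lepr UMIs (23.2%). It was 14 of 15 with a minimum of 200 UMIs (8.35%) and 13 of 13 with every cell at equal weight (11.9%). In cells outside the cycling program none of the 15 had enough UMIs to be read.

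**Figure D5:**
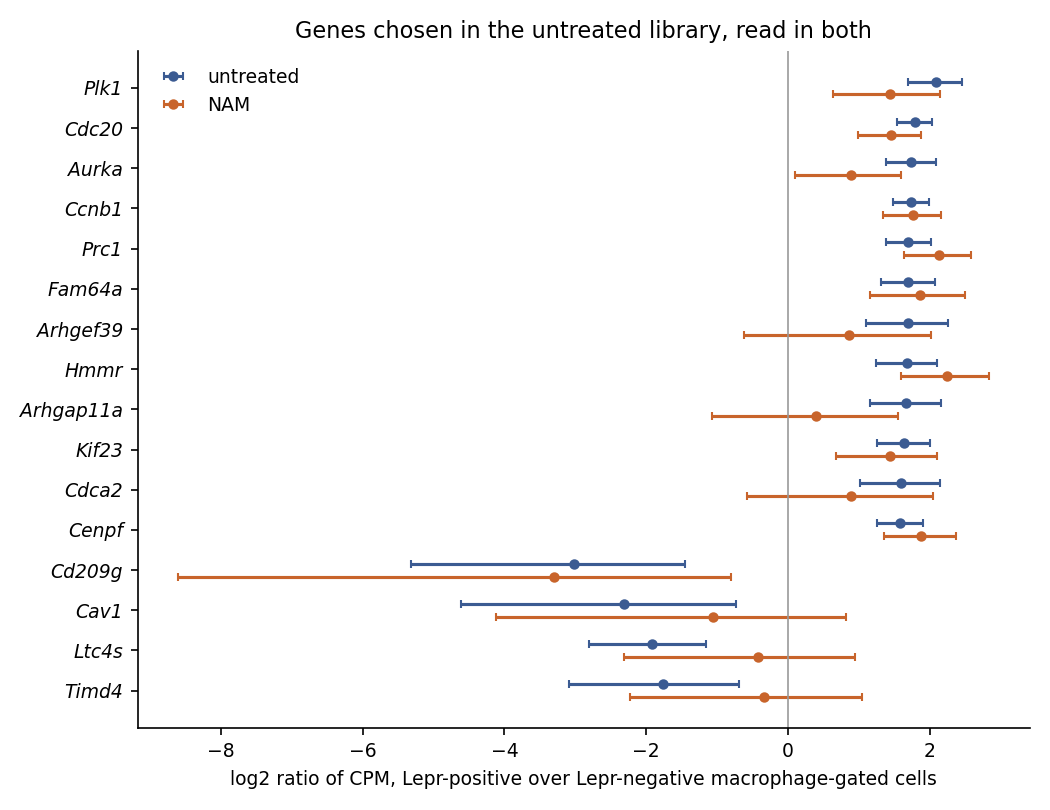
Points give the log2 ratio of CPM between Lepr-positive and Lepr-negative macrophage-gated cells in each library, with exact 95% counting intervals, for the genes chosen in the untreated library that have 100 or more UMIs and at least 1 in positive cells in NAM. The first 12 genes, from Plk1 to Cenpf, lie above 0 in both libraries, and the intervals of Arhgef39, Arhgap11a and Cdca2 in NAM include 0.

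A list of genes of G2 and mitosis and one of S phase were drawn up after these genes had been seen and are given as a description. All 23 G2 and mitosis genes with enough UMIs were at least 1.5-fold higher in positive cells in both libraries, with a median log2 ratio of 1.43 untreated and 1.45 in NAM, and 4.42% and 11.1% of all genes beside them. When matched on depth 19 of 23 passed untreated and 21 of 23 in NAM, with medians of 0.92 and 1.09. Of 23 S-phase genes 7 were higher untreated, with a median of 0.43, and 9 of 22 in NAM, beside 4.42% and 11.1% of all genes. With depth matched 1 of 23 S-phase genes was higher untreated, with a median of 0.04, and 8 of 22 in NAM, with a median of 0.31, beside 3.3% and 10.2%.

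The 10 genes with the lowest ratio were Saa3, Retnla, Ednrb, Cd209g, A330069E16Rik, Cav1, Ltc4s, Ampd3, Lyve1 and Timd4. Retnla had 1.70 CPM in positive and 33.3 in negative untreated cells, and Saa3 had 2.12 and 44.7. Timd4, a receptor for dying cells on resident macrophages, had 2.97 and 10.0. Each rested on 2 to 14 UMIs in positive cells. Retnla was detected in 2.14% of positive against 2.58% of negative cells, so that its difference lay in the number of copies per cell. Only 4 positive cells stand behind this. In NAM 5 of these genes had at least 100 UMIs, all 5 were below 0 and 3 were at least 1.5-fold lower, beside 13.1% of all genes. Few UMIs stand behind these values. Saa3 had none in positive cells and was found in only 1.61% of negative ones. Cd209g had 1 UMI in positive cells (log2 -3.29, -8.60 to -0.81) but was found in 2.04% of positive and 1.20% of negative cells, and the interval of Cav1 included no difference (log2 -1.06, -4.12 to 0.82).

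The 41 untreated macrophages with 5 or more Lepr UMIs were also set against cells without Lepr. No lymphocyte held more than 1 Lepr UMI, but the part of free RNA in these 41 cells was not tested. Among all genes 11.2% were higher and 17.8% lower by 1.5-fold, a wider scatter than for all positive cells. All 23 G2 and mitosis genes were higher, with a median of 1.95, and 9 of 22 S-phase genes were higher and 3 lower, with a median of 0.40. Inflammatory cytokines and chemokines were lower for 10 of 15 members, tissue-resident genes for 9 of 15, genes of the STAT3 response, described below, for 9 of 14 and lipid-associated genes for 6 of 12. In NAM the same comparison rests on 6 cells, with 23.2% of all genes higher and 39% lower, and the direction differed for some lists, as 6 of 13 tissue-resident and 8 of 13 lipid-associated genes were higher. In these 6 cells 13 of 23 G2 and mitosis genes were higher and 4 lower (median 0.98), and 21 of 22 S-phase genes were higher (median 1.51). In the 41 untreated cells heat shock genes, also listed after the leading genes were seen, were higher for 9 of 14 members with a median of 0.98, and in the 6 NAM cells for 5 of 14 with a median of 0.22. Hspa1a, the inducible HSP70, was 1.85-fold higher in all untreated positive cells (log2 0.88, 0.84 to 0.93) and Hspb1 2.60-fold (log2 1.38). In all untreated positive cells 5 of 14 heat shock genes were higher (median 0.39), beside 4.42% of all genes. The 41 cells held 2549 of the 4294 Hspa1a UMIs and 117 of the 233 Hspb1 UMIs of the positive cells, and in cells with a single Lepr UMI none of the 14 was higher (median -0.06), beside 5.01%. In NAM 2 of 14 heat shock genes were higher, near the 11.1% of all genes. Hspa1a was 1.61-fold (log2 0.69, 0.53 to 0.84) and Hspa1b 2.04-fold higher there, while Hspb1 had 2 UMIs in positive cells. Between libraries 6 of 14 heat shock genes were lower in NAM macrophages, with a median log2 ratio of -0.37, beside 3.9% of all genes. Without cycling cells 6 of 14 heat shock genes were higher in untreated positive cells, where 2.43% of all genes were higher and 6.55% lower.

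The other genes of the leptin pathway passed the fold in untreated positive cells about as often as all genes. Leptin itself (Lep) and adiponectin (Adipoq), the other main hormone of fat cells, had no UMI in any cell of either library. Of 23 genes of leptin signalling with enough UMIs, none was 1.5-fold higher in untreated positive cells and 1 was lower, Irs2, an insulin receptor substrate, at log2 -0.81 (-1.52 to -0.17), beside 4.42% and 4.52% of all genes, with a list median of -0.07 and a median of 0.02 over all genes. Stat3 was at -0.18 (-0.45 to 0.07), Jak2 at -0.29 (-0.82 to 0.20) and Leprot at 0.09 (-0.09 to 0.25). Socs3, a feedback inhibitor that STAT3 induces, had 395 CPM in untreated macrophages and was lower in positive cells, at -0.46 (-0.58 to -0.35), which is within 1.5-fold. In NAM 1 of 23 was higher, the adiponectin receptor Adipor2, and 2 were lower, against 11.1% and 13.1% of all genes. In the untreated cells with 5 or more Lepr UMIs Socs3 was past the fold, at -0.84 (-1.10 to -0.59). There 4 of 23 pathway genes were lower and none higher, beside 17.8% and 11.2% of all genes.

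Between libraries the pathway genes named here differed little, with a pair of exceptions. Macrophages had 128 and 127 CPM of Leprot, 66.5 and 64.2 of Stat3, 395 and 412 of Socs3 and 124 and 129 of Ptpn1, the gene of PTP1B (untreated and NAM). Of 24 genes none was 1.5-fold higher in NAM and 2 were lower, Jak2 at 18.8 CPM untreated (log2 -0.77, -1.01 to -0.54) and the kinase Akt1 at 86.8 untreated and 56.0 in NAM (log2 -0.63, -0.74 to -0.53), beside 3.9% of all genes. The list median was -0.02.

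Lepr belongs to the class I cytokine receptors. None of the 17 relatives with enough UMIs was 1.5-fold higher or lower in NAM, beside 1.02% and 3.9% of all genes, with a median log2 ratio of -0.05. Il6ra, the interleukin 6 receptor, had 45.1 and 43.6 CPM, its partner Il6st 10.1 and 9.29, Csf2ra 167 and 200, and Lifr, the receptor of leukaemia inhibitory factor, 19.7 and 13.7 (log2 -0.53, -0.74 to -0.31). A further 8 relatives had too few UMIs to be read. Among them growth hormone receptor (Ghr) had 12 and 18 UMIs, the erythropoietin receptor (Epor) 17 and 7, and the prolactin receptor (Prlr) none, all named after their values were seen. Between positive and negative untreated cells 1 of the 17 was higher, Il12rb1 at log2 0.60 (-0.27 to 1.38), and 1 lower, Csf2rb2 at -0.73, which is close to the 4.42% and 4.52% of all genes. Between positive and negative NAM cells 2 of 17 were higher and 5 lower, beside 11.1% and 13.1%, with a median of -0.16.

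A list of genes that have been linked to STAT3 activity, lower for 9 of 14 members in the untreated cells with 5 or more Lepr UMIs, was also read in all positive cells. Of the 14 genes none was higher and 1 lower in untreated positive cells, the cytokine Il10 at log2 -1.30 (-1.65 to -0.97), beside 4.42% and 4.52% of all genes. In NAM 2 were higher and none lower, beside 11.1% and 13.1%, and Il10 was among the higher ones at 0.62, from 23 UMIs. Inflammatory cytokines and chemokines were lower in untreated positive cells for 5 of 15 genes, beside 4.52% of all genes, with a median of -0.46. Il1b was at -0.63, Cxcl1 at -0.71, Ccl5 at -0.87 and Vegfa at -0.59. In NAM 4 of 16 were lower, beside 13.1%. Untreated, 3 of 15 were lower without cycling cells, beside 6.55%, and 1 of 15 when matched on depth, beside 3.96%. MHC class II genes had no member past the fold in all positive cells of either library, with medians of -0.12 and -0.35, nor did interferon gamma response genes untreated. In cells with 5 or more Lepr UMIs 1 of 8 MHC class II genes was higher untreated (median 0.18), beside 11.2%, and all 8 were lower in the 6 NAM cells (median -1.27), beside 39% of all genes. Lipid-associated genes had 1 of 12 higher untreated, the fatty acid transporter Cd36 at 0.89 (0.53 to 1.23), and in NAM 3 of 13 were lower, beside 4.42% higher and 13.1% lower over all genes. Tissue-resident genes were lower for 3 of 15 members in untreated positive cells, beside 4.52%, and for 2 of 13 in NAM positive cells, where 2 others were higher. Between libraries 9 of 16 members were lower in NAM, beside 3.9%, with a median log2 ratio of -0.66.

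Markers of other cells were also summed in Lepr-positive macrophages. Fibroblast, perivascular and endothelial cells can make leptin receptor, and 10 fibroblast and mesenchymal genes together had 24.6 CPM in untreated positive and 28.9 in negative macrophages, and 32.4 and 39.2 in NAM. The collagen gene Col1a1 had 10 UMIs and Pdgfra 1 UMI in the 187 untreated positive cells. The 6 endothelial genes had 22.1 and 24.3 CPM untreated, and 20.5 and 23.4 in NAM. The 6 epithelial genes were higher in positive cells in both libraries, at 14.0 and 9.23 CPM untreated and 17.1 and 13.6 in NAM, with a UMI in 14.4% against 8.57% and 20.4% against 11.9% of cells. Positive cells were also deeper, as given above. Krt8, a keratin of simple epithelia, had 9.75 CPM in positive and 5.12 in negative untreated cells. In the 41 untreated cells with 5 or more Lepr UMIs the fibroblast genes summed to 28.4 CPM, with a UMI in 36.6% of cells against 23.5% of negative ones, the endothelial genes to 32.0 CPM and the epithelial genes to 16.0 CPM, with a UMI in 17.1% of cells. In the 6 such NAM cells the epithelial genes summed to 38.3 CPM, with a UMI in 50% of cells. The 7 macrophage check genes, Csf1r and Apoe among them, summed to 16683 CPM in positive and 18581 in negative untreated cells, and to 15401 and 17392 in NAM. Without cells that held 2 or more UMIs of the fibroblast, endothelial or epithelial genes the log2 ratio of NAM over untreated was -3.25, compared with -3.53. Their part in the comparisons of positive and negative cells was not tested. The median share of mitochondrial UMIs was 2.44% in positive and 2.60% in negative untreated cells, and 2.87% and 2.77% in NAM.

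Over 18 points, 9 gates in each of 2 libraries, the genes most like Lepr by Pearson's r of log2(CPM + 10) were Gm20655 (0.85), Sipa1l2 (0.82), Il10 (0.82), Cltc (0.82), Plau (0.82), Nt5dc2 (0.82), Retnla (0.82), Slc40a1 (0.81), Cd300lh (0.81) and Fbxw11 (0.81). The points share libraries and the macrophage genes among them, so the values only describe likeness. Il10 had 76.0 CPM in untreated and 25.9 in NAM macrophages, with 64.0 and 8.59 in C1q-low cells. Retnla differed in its order, as it was higher in untreated monocytes (103 CPM) and C1q-low cells (78.8) than in macrophages (29.8).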

How the data were processed

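Single-cell 3′ libraries from pooled CD45+ cells of TSA tumours were aligned to mm10 and counted by the authors with Cell Ranger. The deposited tables hold raw UMI counts, not normalized, for 27998 gene symbols and for cells that all meet the stated filter (1000 genes, 3000 UMIs, at most 10% mitochondrial UMIs). All 2922 untreated and 3276 NAM cells were used, and 11 barcodes occur in both libraries. Doublets were not removed, and cells with macrophage and lymphocyte markers were kept apart as mixed.

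Cells were gated on summed marker UMIs, never on Lepr. The macrophage gate needed 20 C1q UMIs, the T-cell gate 3 of Cd3d, Cd3e and Cd3g, the NK gate 2 of Ncr1 and Klrb1c. With fewer than 20 C1q UMIs, cells were neutrophils (5 of S100a8, S100a9 and Cxcr2; 3 and 5 cells, not described), cDC1 (3 of Xcr1 and Clec9a), mature dendritic cells (5 of Ccr7 and Fscn1), Cd209a dendritic cells (3), monocytes (5 of Ly6c2 and Plac8), or Ctsk Acp5 Mmp9 cells (20). Programs within macrophages, which may overlap, needed 5 UMIs (cycling, Vcam1 Dnase1l3), 10 (interferon, tissue-resident), 15 (Tgfbi Htra3 Ccr2) or 20 (Ctsk Acp5 Mmp9). A further program is not reported here. Thresholds were set on the marker distributions.

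CPM is the sum of UMIs over cells per 1000000 UMIs. Intervals (95%) are exact Poisson for CPM, Clopper-Pearson for shares and conditional binomial for ratios. They assume independent UMIs and leave out differences between cells and mice. Thinned values are expectations of drawing 3000 UMIs per cell without replacement. No test was run, and a gene counts as higher or lower past 1.5-fold, among genes with 100 or more UMIs. Named genes were Lepr, list members with 50 or more macrophage UMIs, the 15 highest and 10 lowest ratios in untreated positive cells and the 10 genes most like Lepr over gates. Exceptions named after their values were seen were the lowest genes between libraries, the genes with a higher variance ratio than Lepr, single check genes such as Col1a1, Pdgfra and Krt8, and Lep, Adipoq, Ghr, Epor and Prlr with too few UMIs. The gene, the lists and the gates were chosen with earlier results of these data known, and the lists of S phase, G2 and mitosis and heat shock were added after the leading genes were seen. Ratios, intervals and thinning were tested on simulated data. Alternatives changed scaling, depth, gates, the cells left out, what counts as positive, the count minimum and the fold. Python 3.11.15, NumPy 2.4.6, SciPy 1.17.1 and matplotlib 3.10.9 were used. Coordinates come from GENCODE for GRCm38 (mm10).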

Additional observations from a re-analysis of the deposited data

Results flagged for a closer look

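The ratio of Lepr in tissue-resident cells had opposite signs in the libraries, but it depended on how it was taken and no direction can be given. The log2 ratio of cells with tissue-resident genes over other macrophages was -0.61 (-0.84 to -0.40) untreated and 0.71 (-0.03 to 1.38) in NAM. The difference was not tested, since each group is 1 library, and the NAM value rests on 21 UMIs in 5 cells, 11 of them in 1 cell. When the 5 highest cells per library were left out the ratios were -1.26 and -0.98, and with the threshold doubled they were 0.12 and 1.97.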

How the results depend on the processing

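Lepr was lower in NAM macrophages under all 6 alternatives, with log2 ratios from -3.16 (thinned) through -3.25 (without cells with stromal, endothelial or epithelial UMIs) to -3.87 (doubled C1q threshold). Positive shares were 4.78% and 1.02% after thinning, 4.48% and 1.03% for 2 or more UMIs and 2.04% and 0.27% for 5 or more, a limit chosen after seeing the data, as were the program ratios without the 5 highest cells, 1 UMI against 0 and equal cell weight. UMIs per positive cell after thinning were 3.54 untreated and 1.86 in NAM. The cycling ratio (log2) was 2.48 thinned and 1.75 without the 5 highest cells untreated, and 1.77 at the doubled threshold and 1.02 without those cells in NAM. Ratios that changed sign were the Tgfbi program in NAM at the doubled threshold (-0.76) and without the 5 highest cells (-0.36), and the tissue-resident program untreated at the doubled threshold (0.12). In NAM the tissue-resident and interferon ratios, whose intervals already included 0, also changed sign without the 5 highest cells (-0.98 and 0.20). The cause was not tested.

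When the 15 highest and 10 lowest genes were chosen anew, 4 of 12 highest genes passed the fold in NAM with depth matched (10 of 15 shared with the first choice), 3 of 13 without cycling cells (none shared) and 5 of 12 for 5 or more Lepr UMIs, against 11 of 12, beside 10.2%, 11%, 23.2% and 11.1% of all genes. For the lowest genes 3 of 5 (13.1% of all genes) became 5 of 6 for 2 or more UMIs (19.5%), 7 of 9 with a minimum of 50 UMIs (15.7%), 0 of 4 with 200 (9.53%), 5 of 5 without cycling cells (18.9%), 6 of 8 for 5 or more UMIs (39%) and 6 of 7 for 1 UMI (20.3%). No paired analysis was possible because each group is 1 library.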

Other observations

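Cells with both C1q and lymphocyte markers, which were left out of every group above, were few, 15 untreated and 29 in NAM. They held 30 and 2 Lepr UMIs. In the untreated library 26 of the 30 came from 1 cell, and the level was 165 CPM (111 to 236) against 6.27 (0.76 to 22.7) in NAM. Of the 11 barcodes found in both libraries, a Lepr UMI was found in 3 of the cells that carry them.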
